A study of Rattus norvegicus with 2 samples.

Results

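Blood-cell miRNAs were examined on native high-density lipoprotein (nHDL) that had or had not been in contact with beta cells. The set was taken by name and not by a cut on measured values, but earlier results of these data were known when it was chosen. It holds 5 miRNAs of the erythroid lineage (miR-16-5p, miR-451-5p, miR-144-3p, miR-144-5p and miR-486) and 4 of leukocytes (miR-142-3p, miR-142-5p, miR-150-5p and miR-223-3p). Of these 9 names, 8 were among the 406 rat miRNAs tabulated. miR-486 was not analysed here. Of the 8, 5 had reads and 3 were listed at 0 in both libraries. INS-1 832/13 is a rat insulinoma line that serves as a beta cell model. In the INS-1-nHDL sample, nHDL from human plasma was incubated with these cells in serum-free medium, and in the cf-nHDL sample the same kind of nHDL was kept in medium with no cells. The HDL was then recovered through an antibody to apoA-I, its main protein, and its small RNAs were sequenced. Both samples carry the INS-1 strain label, although no cells were present for cf-nHDL. Each condition is 1 library from pooled samples, so no difference between the conditions has a replicate check and no p-value was computed. Reads of human and rat miRNAs were counted on the same rat sequences.

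Mature miRNAs are short RNAs that guide Argonaute proteins to messenger RNAs through a seed near their 5′ end. Plasma holds miRNAs from many cells, and blood cells are a major source of them. miR-451 and miR-144 are made from a single cluster that GATA1 switches on in red cell precursors, and miR-451 is unusual in being cut by AGO2 rather than Dicer. miR-142 is made throughout the haematopoietic lineages, miR-150 in mature lymphocytes and miR-223 in neutrophils, monocytes and platelets. miR-16 is plentiful in red cells but is also made in most other tissues, so it does not mark blood cells alone. HDL is among the carriers of extracellular miRNAs, with vesicles and free Argonaute complexes.

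The mature sequences from RefSeq (GRCr8) are shown with the seed, bases 2 to 8, in capitals, because miRNAs with the same seed share many targets. RefSeq entries matched 7 of the 8 tabulated names, and all 7 were the same as the sequence that the deposited table counts. miR-150-5p is named only.
miR-16-5p: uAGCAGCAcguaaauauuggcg
miR-451-5p: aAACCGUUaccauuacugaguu
miR-142-5p: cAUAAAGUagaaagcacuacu
miR-142-3p: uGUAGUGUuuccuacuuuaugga
miR-144-3p: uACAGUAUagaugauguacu
miR-144-5p: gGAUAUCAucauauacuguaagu
miR-223-3p: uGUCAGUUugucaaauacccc
Among all miRNAs tabulated, the seed of miR-16-5p occurred in 5, itself included, and each other seed shown above occurred once. The relatives of miR-16-5p are shown because theirs are the reads most easily confused with its own.
miR-15b-5p: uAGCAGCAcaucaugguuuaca
miR-195-5p: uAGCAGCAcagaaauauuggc
miR-497-5p: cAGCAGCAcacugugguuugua
miR-322-5p: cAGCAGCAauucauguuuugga
Counted from the 5′ end, miR-195-5p differs from miR-16-5p by G10A and U11G over their shared 21 bases, and the other relatives differ at 8 to 11 positions. The alignment allowed 1 mismatch. For each of the 7 other tabulated names, the most similar miRNA differed at 7 or more positions when the sequences were laid side by side without gaps. The counts of the 8 held no decimals.

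miR-16-5p, which restrains cell-cycle genes, held most of the signal of the set. It had 2486 reads on cf-nHDL against 741 on INS-1-nHDL. It was thus the most abundant miRNA on cf-nHDL and stood at rank 3 on INS-1-nHDL, behind miR-375-3p and miR-203a-3p. The cf-nHDL library held 6585 miRNA reads and the INS-1-nHDL library 18008, so the library with 2.73 times as many miRNA reads held 29.8% as many reads of miR-16-5p. It made up 37.8% of all miRNA reads on cf-nHDL (36.6 to 38.9%, Wilson 95% interval), compared with 4.11% on INS-1-nHDL (3.83 to 4.41%). After division by DESeq2 size factors, which take the typical miRNA found in both libraries as equal, the normalized counts were 3502 and 526. The fold change, given throughout as INS-1-nHDL divided by cf-nHDL, was 0.150 (exact 95% interval 0.138 to 0.163), which is -2.73 on the log2 scale. Over other scalings and filters it ran from 0.109 to 0.279. All intervals and floors cover counting error only, since reads copied by PCR are not separate molecules. Reads measure a miRNA relative to the others in its library, so fewer copies of miR-16-5p per HDL particle and more copies of other miRNAs cannot be told apart.

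miR-451-5p, the miRNA most typical of red cells, had 26 reads on cf-nHDL against 5 on INS-1-nHDL. It stood at rank 22 on cf-nHDL with 0.395% of the miRNA reads, and at rank 66 on INS-1-nHDL with 0.0278%. Its fold change was 0.0969 (0.0291 to 0.256). The partners from its cluster, miR-144-3p and miR-144-5p, had 0 reads in both libraries. A count of 0 allows a share of up to 0.0456% on cf-nHDL or 0.0167% on INS-1-nHDL (3 reads of the total). Both miR-144 arms were therefore not detectable at this depth, and miR-16-5p made up nearly all erythroid reads.

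The leukocyte miRNAs were sparse on both preparations. miR-142-5p, a regulator of immune cell differentiation, had 15 reads on cf-nHDL against 5 after contact with INS-1 cells, and its fold change was 0.168 (0.0478 to 0.486). miR-142-3p, from the other arm of the same hairpin, had 0 reads in both libraries. miR-150-5p, which targets MYB in lymphocytes, had 10 and 5 reads, a fold change of 0.252 (0.0676 to 0.809). miR-223-3p, a brake on granulocyte activity, had 7 reads on cf-nHDL but 0 on INS-1-nHDL, so its fold change was at most 0.216 when 3 reads are taken for INS-1-nHDL. The exact interval of its ratio ends at 0.350. The 3 leukocyte miRNAs with reads had fewer of them on INS-1-nHDL, as did 29 (35.8%) of the 81 miRNAs with enough reads to be compared. miR-223-3p counted among these only through cf-nHDL, so it could not have been higher on INS-1-nHDL. Summed, the leukocyte reads numbered 32 on cf-nHDL against 10 on INS-1-nHDL, which puts their fold change at 0.158 (0.0691 to 0.328).

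**Figure D1:**
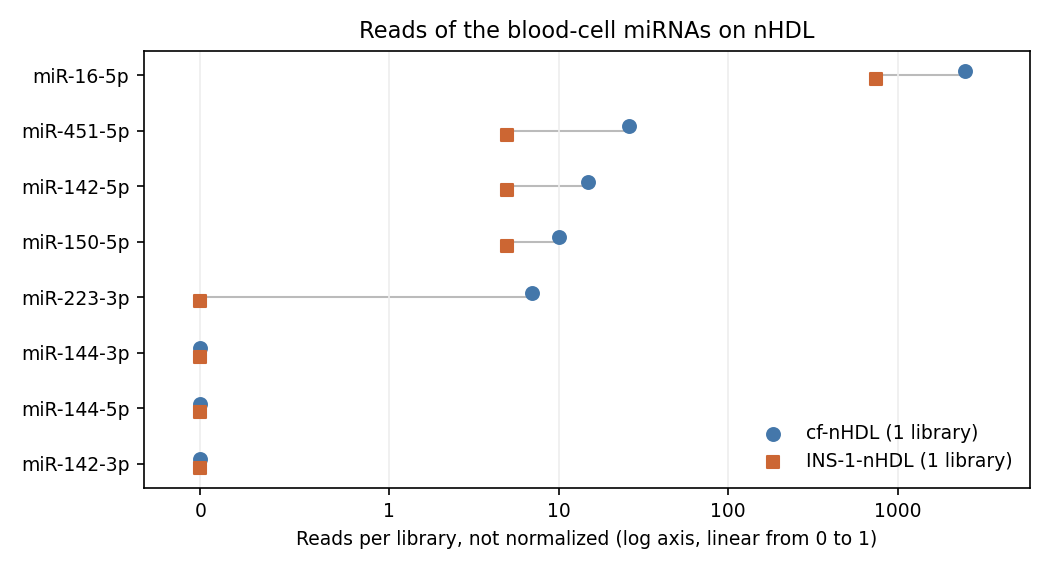
Reads of the 8 tabulated blood-cell miRNAs in the cf-nHDL library (circles) and the INS-1-nHDL library (squares), not normalized, on an axis that is logarithmic above 1. miR-16-5p lies at 2486 and 741 reads, the 4 other miRNAs with reads lie between 0 and 26, and 3 miRNAs are at 0 in both libraries.

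Together the set took 2544 of 6585 miRNA reads on cf-nHDL, or 38.6% (37.5 to 39.8%), compared with 756 of 18008 on INS-1-nHDL, or 4.20% (3.91 to 4.50%). Without miR-16-5p the set took 58 reads, or 0.881% (0.682 to 1.14%), on cf-nHDL and 15 reads, or 0.0833% (0.0505 to 0.137%), on INS-1-nHDL. The shares on cf-nHDL were 9.20 times those on INS-1-nHDL with miR-16-5p and 10.6 times without it. The intervals of the libraries did not overlap in either case. Part of the gap in shares is set by miR-375-3p, the beta cell miRNA, which had 231 reads on cf-nHDL against 11219 on INS-1-nHDL, 62.3% of the miRNA reads there. With miR-375-3p taken out of the total, the set held 40.0% (38.8 to 41.2%) of the remaining reads on cf-nHDL, compared with 11.1% (10.4 to 11.9%) on INS-1-nHDL. The ratio between the libraries was then 3.60, and 4.13 without miR-16-5p (0.913% and 0.221%). The lower share on INS-1-nHDL was therefore seen with and without miR-375-3p, while its size depended on it.

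**Figure D2:**
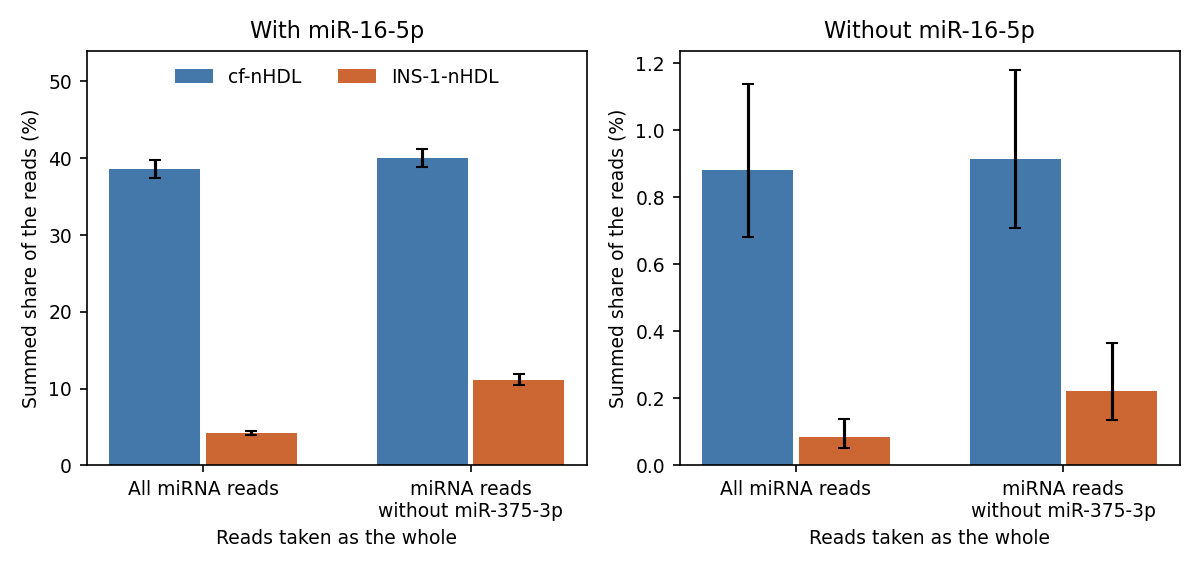
Summed share of the blood-cell miRNAs in percent, with all of them (left) and without miR-16-5p (right), of all miRNA reads or of those other than miR-375-3p; bars are 1 library each and error bars are Wilson 95% intervals. With miR-16-5p the bars stand at 38.6% and 4.20% of all miRNA reads and at 40.0% and 11.1% without miR-375-3p, and in each pair of bars INS-1-nHDL is the lower.

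As a fold change of normalized counts, the summed set was at 0.150 (0.138 to 0.163), and at 0.130 (0.0686 to 0.233) without miR-16-5p. Within the set, miR-16-5p supplied 97.7% of the reads on cf-nHDL (97.1 to 98.2%), and its part on INS-1-nHDL was 98.0% (96.8 to 98.8%). The summed value is thus close to a restatement of miR-16-5p, and the value without it rests on 58 and 15 reads.

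A filter asked for 5 or more reads in either library, and 81 miRNAs passed it. Of these, 32 (39.5%) had a fold change below 1/1.5, and for 24 (29.6%) the whole interval lay below it. All 5 blood-cell miRNAs with reads passed this read filter. Each of the 5 had a fold change below 1/1.5, and for 4 of them the whole interval did. The exception was miR-150-5p, whose interval reaches 0.809. The 4 include miR-223-3p, which had no other direction to take. With total reads without miR-375-3p as the scale, the interval of miR-142-5p ended at 0.903, so that the whole interval lay below 1/1.5 for 3 of the 5 and for 17 (21.0%) of the 81. The median fold change of the 5 was 0.168 with miR-223-3p at its bound, or 0.150 with miR-223-3p taken as 0, against 1.17 over all 81 miRNAs. Of the 35 miRNAs with 5 to 30 reads on cf-nHDL, which include the 4 sparse blood-cell miRNAs, 22 were below 1/1.5. miR-16-5p was not the lowest of all, since 10 of the 81 miRNAs had a smaller fold change, with 0 reads again taken as 3.

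**Figure D3:**
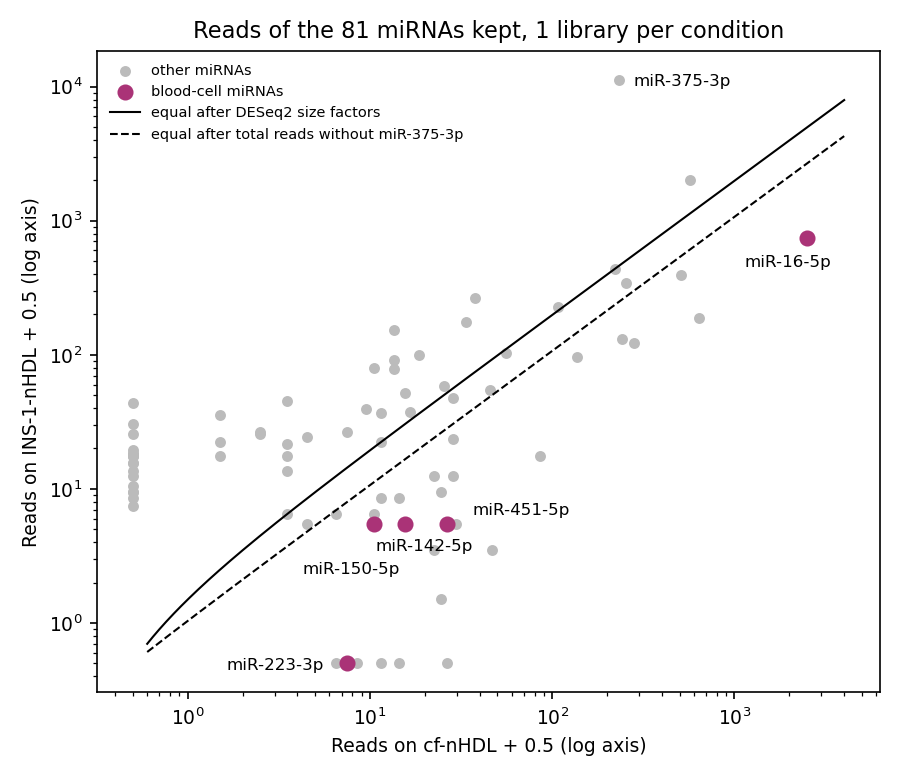
Reads of the 81 miRNAs kept, on cf-nHDL (x axis) and INS-1-nHDL (y axis), with 0.5 added so that counts of 0 can be drawn on log axes; lines mark equality after DESeq2 size factors (solid) and after total reads without miR-375-3p (dashed). The 5 blood-cell miRNAs lie below both lines, among a wider group of lower miRNAs, and miR-375-3p lies far above them.

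A ratio taken within each library does not depend on how the libraries are scaled, so the sparse miRNAs were also set against miR-16-5p. For every 1000 reads of miR-16-5p, miR-451-5p had 10.5 reads on cf-nHDL against 6.75 on INS-1-nHDL, a relative fold change of 0.645 (exact 95% interval 0.193 to 1.72). miR-142-5p had 6.03 and 6.75 per 1000, a relative fold change of 1.12 (0.317 to 3.25). miR-150-5p had 4.02 and 6.75 per 1000, or 1.68 (0.448 to 5.41). For miR-223-3p the interval ran from 0 to 2.33. At the ratio of miR-16-5p, its 7 reads on cf-nHDL correspond to 2.09 reads on INS-1-nHDL, so the 0 reads found there are within the floor of 3 reads. The 4 sparse miRNAs summed had a relative fold change of 0.868 (0.454 to 1.56). A difference between the erythroid and leukocyte names was not detectable at this depth either, as the leukocyte sum relative to miR-451-5p was 1.63 (0.435 to 6.81). These wide intervals contain 1 but also changes of more than 1.5-fold in both directions, and they do not show that the miRNAs moved alike.

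The ratio of miR-451 to miR-23a-3p is used as a marker of red cell lysis in plasma, because miR-23a-3p is little affected by it. miR-23a-3p had 28 reads on cf-nHDL against 12.5 on INS-1-nHDL, the decimal being as deposited. The ratio was 0.929 on cf-nHDL against 0.400 on INS-1-nHDL. With the rounded counts, miR-451-5p relative to miR-23a-3p had a fold change of 0.449 (0.110 to 1.62), an interval that contains 1. miR-23a-3p was itself lower on INS-1-nHDL, with a fold change of 0.216 (0.100 to 0.439).

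Against miR-21-5p, a broadly expressed miRNA with 508 and 396 reads, miR-16-5p was lower on INS-1-nHDL by a relative fold change of 0.382 (0.327 to 0.448). That of miR-451-5p was 0.247 (0.0734 to 0.662). The intervals of miR-142-5p (0.121 to 1.25) and miR-150-5p (0.171 to 2.08) contained 1, and that of miR-223-3p (0 to 0.897) did not. miR-223-3p, with reads on cf-nHDL alone, could not have been higher. Relative to miR-23a-3p, miR-16-5p was at 0.695 (0.341 to 1.51), an interval that contains 1. The lower level of miR-16-5p thus held against miR-21-5p but was not detectable against miR-23a-3p. That reference is sparser and was itself lower on INS-1-nHDL, with a fold change of 0.216 (0.100 to 0.439).

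The fold changes nearest to that of miR-16-5p were sought among the 10 miRNAs with at least 100 reads on cf-nHDL and at least 20 on INS-1-nHDL, over the 2 libraries. miR-10a-5p, a miRNA of the HOX gene clusters, came first with 638 and 187 reads and a fold change of 0.148 (0.125 to 0.174). Relative to miR-16-5p it was at 0.983 (0.815 to 1.18), so the counts do not separate them. miR-320-3p followed with 280 and 122 reads and a relative fold change of 1.46 (1.15 to 1.84), and then miR-125b-2-3p with 242 and 131 reads and 1.82 (1.43 to 2.29). The intervals of these 2 lay above 1, so their fold changes were above that of miR-16-5p beyond counting error. With 2 libraries, nearness is only a matching ratio.

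**Figure D4:**
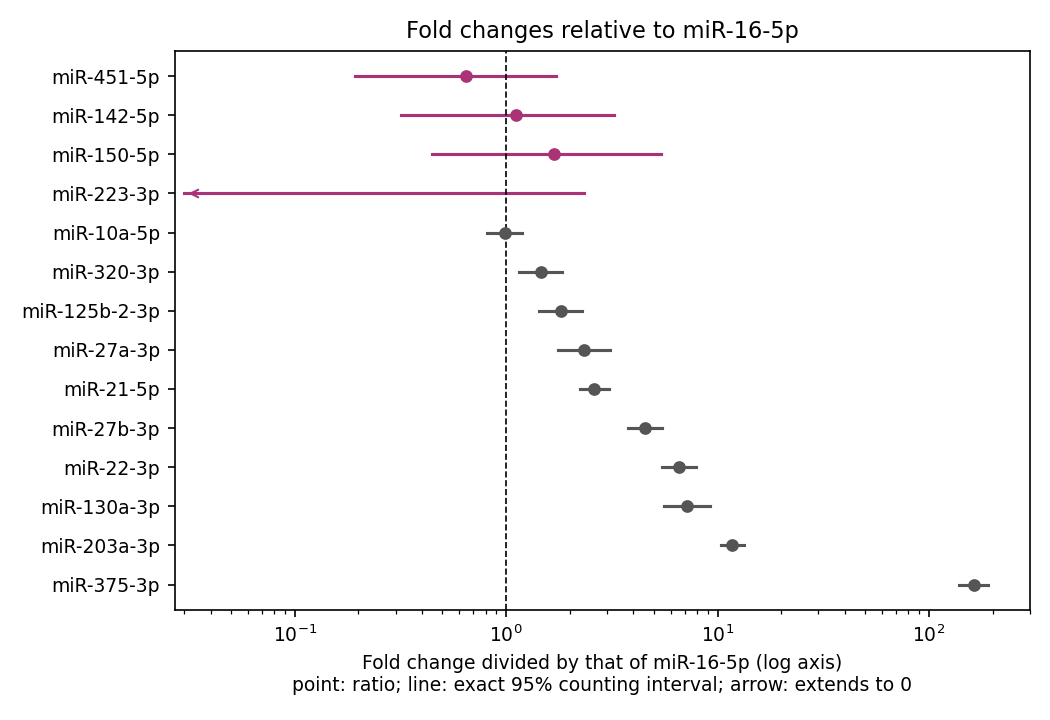
Fold change of each miRNA between the libraries divided by that of miR-16-5p, for 4 blood-cell miRNAs and for the 10 abundant miRNAs used in the search, on a log axis with exact 95% counting intervals. The intervals of the blood-cell miRNAs and miR-10a-5p cross 1, and those of the other abundant miRNAs lie above it, from 1.46 for miR-320-3p to 162.9 for miR-375-3p.

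The 4 tabulated relatives of miR-16-5p had few or no reads, and miR-15a-5p was not analysed here. In the coordinates of the deposited table, on a rat build written as rno5, miR-16-5p lies at chr2:184967206-184967227 on the plus strand. miR-15b-5p, which shares its seed, starts 146 bases before it. miR-15b-5p had 2 reads in each library, so miR-16-5p had 1243 times as many reads on cf-nHDL, and 370.5 times as many on INS-1-nHDL. miR-195-5p, miR-497-5p and miR-322-5p had 0 reads in both libraries. In the gene table of GRCr8, a later assembly, Mir15b and Mir16 both lie inside Smc4, which encodes a condensin subunit.

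The other arm of each hairpin was also without reads. The hairpin of Mir16 from RefSeq (GRCr8) is shown with the miR-16-5p arm in capitals, that of Mir451a with miR-451-5p in capitals, and that of Mir142 with miR-142-5p in capitals, to show the counted arm beside the rest of its precursor.
Mir16: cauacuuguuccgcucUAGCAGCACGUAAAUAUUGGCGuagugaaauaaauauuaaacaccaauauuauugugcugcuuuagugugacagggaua
Mir451a: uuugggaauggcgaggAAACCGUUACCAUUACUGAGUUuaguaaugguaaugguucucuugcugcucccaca
Mir142: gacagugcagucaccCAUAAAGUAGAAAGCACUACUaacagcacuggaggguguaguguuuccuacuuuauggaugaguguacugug
miR-16-3p had 0 reads beside the 2486 and 741 reads of miR-16-5p, which puts the 5p arm at least 829-fold above it on cf-nHDL and 247.0-fold on INS-1-nHDL. miR-451-3p, miR-150-3p and miR-223-5p also had 0 reads in both libraries. For miR-142 the 15 and 5 reads of the 5p arm against 0 of the 3p arm give a ratio of at least 5 on cf-nHDL but only at least 1.67 on INS-1-nHDL, so the arm bias is poorly bounded on INS-1-nHDL.

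The remaining loci were placed as follows in the deposited coordinates. miR-451-5p lies at chr10:66340869-66340890 on the plus strand, starting 139 bases after miR-144-3p at chr10:66340730-66340749. The GRCr8 table has Mir144 and Mir451a outside any other gene, between Flot2 and Eral1. miR-142-5p lies at chr10:75051514-75051534 on the minus strand, and in GRCr8 Mir142 overlaps Tspoap1, next to the myeloperoxidase gene Mpo. miR-150-5p lies at chr1:102181499-102181520 and miR-223-3p at chrX:66206025-66206045, where the GRCr8 gene LOC120099372 overlaps Mir223.

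Other groups of miRNAs were used to see where the set differed. The let-7 and miR-98 family had 94 reads on cf-nHDL against 324 on INS-1-nHDL, and relative to it the blood-cell set was at 0.0862 (0.0669 to 0.111). Relative to the miR-23, miR-27 and miR-24 clusters, with 440 and 462 reads, the set was at 0.283 (0.242 to 0.331). Without miR-16-5p the corresponding values were 0.0750 (0.0379 to 0.142) and 0.246 (0.128 to 0.449). Relative to all miRNAs outside the set other than miR-375-3p, with 3810 and 6033 reads, the set was at 0.188 (0.171 to 0.206), and at 0.163 (0.0859 to 0.293) without miR-16-5p. A large part of those 6033 reads came from miR-203a-3p, which had 570 and 1997 reads and a fold change of 1.77 (1.61 to 1.94). These groups were mixed, and their sums hide members as low as the blood-cell miRNAs. With size factors, 3 of the 4 miRNAs of the miR-23, miR-27 and miR-24 clusters past the filter were below 1/1.5, among them miR-23a-3p at 0.216 (0.100 to 0.439) and miR-27a-3p at 0.352 (0.268 to 0.461), while miR-27b-3p, with 254 and 343 reads, carried most of the sum. In the let-7 and miR-98 family 3 of 9 were below and 6 were above 1.5. Among the lower ones, let-7g-5p, with 22 and 3 reads, was at 0.0687 (0.0132 to 0.229), under the value of miR-16-5p. Both counts of miRNAs below 1/1.5 stand beside the 39.5% of all 81 miRNAs. The intervals of the sums relative to the groups summed above lay below 1 whichever way the libraries are scaled, though they compare only these 2 libraries. The miR-10, miR-99/100 and miR-125 families were not summed. Each of their miRNAs past the filter was also below 1/1.5 with size factors. miR-10a-5p was at 0.148, miR-10b-5p at 0.302, miR-125a-5p at 0.0210, miR-125b-2-3p at 0.273 and miR-100-5p at most at 0.216. miR-125a-5p and miR-100-5p passed the filter only through cf-nHDL. Low values were therefore not particular to the blood-cell set.

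A further list of 13 miRNAs of leukocytes, platelets and red cells stood higher than the set. It had 110 reads on cf-nHDL against 213 on INS-1-nHDL, and the blood-cell set relative to it was at 0.153 (0.119 to 0.197), or 0.134 (0.0674 to 0.253) without miR-16-5p. The direction of the list itself, and of miR-92a-3p, miR-25-3p and miR-181a-5p in it, turned with the scaling, from a summed fold change of 0.976 (0.772 to 1.24) with size factors to 0.708 under total miRNA reads and 1.81 when miR-375-3p was left out of that total. Of its 5 miRNAs past the filter, 2 were below 1/1.5, close to the 39.5% of all 81 miRNAs, and 0 above 1.5. The largest, miR-92a-3p, which is also made in many dividing cells, had 55 and 102 reads and a fold change of 0.935 (0.667 to 1.32). miR-25-3p had 25 and 58 reads and one of 1.17 (0.720 to 1.95), and miR-181a-5p, a lymphocyte miRNA that is also made in many tissues, had 16 and 37 reads and one of 1.17 (0.633 to 2.24). miR-191a-5p (6 and 6 reads) and miR-126a-5p (4 and 5 reads) were below 1/1.5 with intervals that contain 1. miR-155-5p and miR-223-5p had 0 reads in both libraries, and the other 6 had 2 reads or fewer in each. Reads from blood cells and from INS-1 cells cannot be told apart in this sum.

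The beta cell list was led by miR-375-3p. Of its 8 names, 7 were tabulated and 4 had reads past the filter. miR-375-3p had a fold change of 24.5 (21.5 to 28.0) and miR-182, with 13 and 152 reads, one of 5.89 (3.34 to 11.3). miR-183-5p and miR-129-5p had 0 reads on cf-nHDL, with 7 and 9 reads on INS-1-nHDL. They passed the filter only through INS-1-nHDL and could not have been lower there, and their intervals, which start at 0.726 and 0.995, contain 1. miR-96-5p, miR-124-3p and miR-9a-5p of this list had 0 reads in both libraries.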

How the data were processed

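Small RNA-seq of cf-nHDL and INS-1-nHDL was analysed, with 1 library per condition. Per the labels and the study's methods, the authors trimmed adapters with Cutadapt, used Bowtie 1.1.2 for alignment to rat (rno5), tolerating 1 mismatch, and deposited expected counts per mature miRNA without normalization. Reads matching several miRNAs appear to have been divided, with decimals at 11 miRNAs and at 0 of the blood-cell miRNAs. The counts were rounded to whole reads. A second deposited table holds the authors' DESeq2 comparison (base means, fold changes and p-values) and was not used.

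miRNAs were kept if either library had 5 or more reads, which left 81. DESeq2 1.42.0 size factors (R 4.3.3) came from the 56 of them with reads in both libraries and were 0.710 and 1.41. Fold changes have exact Clopper-Pearson intervals given the summed reads, shares have Wilson intervals, and ratios within libraries are odds ratios of reads with conditional exact intervals (scipy 1.17.1). Against 0 reads, 3 reads were taken and the value is a bound. miRNAs at or under 3 reads on both sides have no fold change. The depth was 6585 and 18008 miRNA reads. The total of sequenced reads is not given in the tables used here.

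The miRNAs to be named were all 9 of the set, the references miR-375-3p, miR-21-5p and miR-23a-3p, the further lists, and the 3 abundant miRNAs nearest to miR-16-5p. miR-203a-3p, miR-10b-5p, miR-125a-5p, miR-100-5p, the partner arms and the other abundant miRNAs plotted were named after their values were seen. The set and all lists were chosen with earlier results of these data known. The alternatives were edgeR 4.0.16 TMM, total miRNA reads with and without miR-375-3p, other filters, a pseudocount, unrounded counts, another denominator and other reference miRNAs. The interval computation was tested on simulated data.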

Additional observations from a re-analysis of the deposited data

How the results depend on the processing

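No paired analysis was possible because there was a single library for each condition, which also means that none could be omitted. The fold change lay below 1 for each of the 5 blood-cell miRNAs with reads under every scaling, filter and pseudocount that gave it a value, and its size varied. Ratios to a reference miRNA did turn: miR-142-5p was at 1.12 relative to miR-16-5p, 0.428 to miR-21-5p and 0.778 to miR-23a-3p, and miR-150-5p at 1.68, 0.641 and 1.17. All 6 of these intervals contained 1. In place of 0.150, the fold change of the summed set was 0.109 under total miRNA reads and 0.278 when miR-375-3p was taken out of that total. It was 0.190 when miR-16-5p was left out of that total as well, a scaling chosen after seeing the data. Without miR-16-5p, the summed value of 0.130 became 0.242 with miR-375-3p out of the total. These scalings move every miRNA by 1 amount, -0.46, 0.89 and 0.34 on the log2 scale in the order given, so they are not separate checks of each miRNA. Taking miR-375-3p out of the total changed the summed share from 38.6% to 40.0% on cf-nHDL and from 4.20% to 11.1% on INS-1-nHDL, and without miR-16-5p from 0.0833% to 0.221% on INS-1-nHDL. The number of blood-cell miRNAs below 1/1.5 was 5, beside 32 (39.5%) of all 81, and 2 when the filter was raised to 20 reads in either library, a step that removes the other 3 and leaves 19 (38.8%) of 49 miRNAs below. Over the alternatives, the fold change ran from 0.109 to 0.279 for miR-16-5p, from 0.0703 to 0.180 for miR-451-5p, from 0.122 to 0.312 for miR-142-5p, from 0.183 to 0.468 for miR-150-5p and from 0.0921 (with a pseudocount) to a bound of 0.401 for miR-223-3p, whose interval then ended at 0.649. The interval of miR-150-5p contained 1 when the total without miR-375-3p was used, and also with miR-16-5p left out of it, where it ended at 1.03. Counts of 26 or fewer limit every statement on a miRNA of the set other than miR-16-5p.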
